A study of Mus musculus with 4 samples.

Results

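Septins are GTP-binding proteins of the cytoskeleton. They join end to end into rods and filaments that scaffold the cell cortex, the cleavage furrow of dividing cells and the base of the primary cilium. The family falls into 4 subgroups named after SEPT2, SEPT3, SEPT6 and SEPT7, and subunits from different subgroups stand side by side in a rod. Shorter rods hold subunits of the SEPT2, SEPT6 and SEPT7 subgroups, and longer rods hold a SEPT3-subgroup member, usually SEPT9, as well. Members of 1 subgroup can stand in for each other at their place in the rod.

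In the gene count table examined here, no septin stood under its own symbol. Of 24909 rows, 26 had a calendar date as their symbol, the form into which spreadsheet programs turn some gene symbols. The genes described here are the 10 rows named 2-Sep to 11-Sep, read as Septin2 to Septin11, where the number before the month is the septin number. The rows 1-Sep, 12-Sep and 14-Sep were not among them and are mentioned only as values.

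RNA-seq counts came from ASZ001, a mouse cell line derived from a basal cell carcinoma, which is a skin tumour driven by Hedgehog signalling. The control group (2 libraries) carried an empty vector that responds to doxycycline, and the c-FOS group (2 libraries) carried the same kind of vector with c-FOS, a subunit of the AP-1 transcription factor. Both groups received doxycycline. The labels give no dose, time or clone structure of the lines. By its title, the series concerns the change of basal into squamous cell carcinoma, and the comparison asks which transcripts differ between the 2 kinds of cell. With no untreated cells of the c-FOS line, induction of c-FOS and any other difference of the 2 lines cannot be told apart. Whether replicates were separate cultures is not labelled, and p-values then cover only the spread between these libraries, which may be technical.

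The libraries held 28405433 to 32465409 counts. Fos, the check of the labels, was at 0.403 and 0.351 CPM (counts scaled to the library total) in control libraries and at 297 and 313 CPM in c-FOS libraries. The basal keratinocyte and basal cell carcinoma markers Krt5, Krt14, Krt15, Trp63, Itga6, Gli1 and Ptch1 were all tested, of which 6 were lower and 1 higher with c-FOS, where 33.4% of all genes tested were lower and 33.8% higher. Several markers of other cell types rose, among them the neuronal tubulin gene Tubb3 (means 29.5 and 215 CPM), the macrophage receptor gene Csf1r (0.305 and 18.4 CPM) and the macrophage gene Cd68 (11.1 and 14.3 CPM). The pan-leukocyte gene Ptprc had group means of 0.017 and 0.069 CPM, the neuronal gene Snap25 and the T-cell gene Cd3e were at 0 counts, and the 6 male germ cell markers summed to 0.112 to 0.219 CPM in control and 0.126 to 0.145 CPM in c-FOS libraries.

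The identity of the date rows was checked with the strand and gene model length that the table gives for each row. Each of the 10 rows lay on the strand that the GENCODE M21 annotation gives for the septin of that number, 7 on the plus and 3 on the minus strand. The length of each row was within 2.91% of a coding transcript of that septin, with a median difference of 0.861%. The closest were Septin7, with 2513 bases in the table against a transcript of 2516, and Septin10, with 2528 against 2532. Over 20478 coding genes matched by symbol, 99.5% had the annotated strand and 75.03% had a transcript within 5% of the table's length, so lengths differ between annotations for ordinary genes too. Among the 13 septins of the annotation, the one named by the date was nearest in length for 9 of 10 rows. The exception was 4-Sep (1327 bases), where a Septin5 transcript was 13 bases away and a Septin4 transcript 24, but Septin5 lies on the other strand. Among septins of the same strand, the one named by the date was nearest for 10 of 10 rows. The selenoprotein once called Sep15, which a spreadsheet could also turn into a September date, stood in the table as Selenof, and no row was named 15-Sep.

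**Figure D1:**
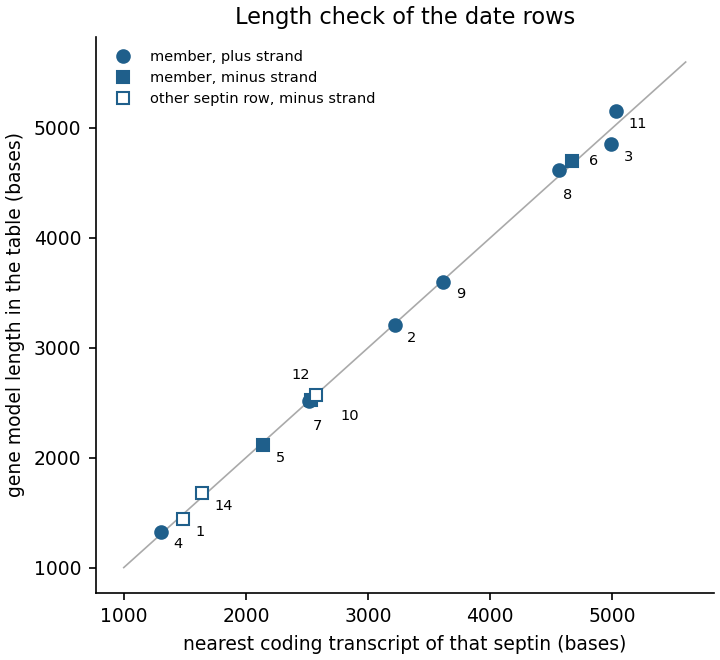
Gene model length in the count table (bases, vertical) against the nearest coding transcript of the septin with that number (bases, horizontal). Each point is 1 date row, labelled with its number, with filled circles and squares for the 10 rows described and open squares for 1-Sep, 12-Sep and 14-Sep. All 13 points lie close to the line of equal length, the farthest at 3.19% (1-Sep).

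Reads shared between septins could blur their counts. No stretch of 50 bases in the transcript nearest in length to each of the 13 rows occurred in a transcript of another septin. Septin5 was the exception in another sense: 593 of the 2143 bases of its transcript (27.7%) lie in exons of Gp1bb, the platelet glycoprotein gene just downstream on the same strand, and 46.6% lie in exons of Gm49601, a gene model that spans the region and has no row in the table. Of the 50-base stretches of the Septin5 transcript, 71.5% also occurred in transcripts of these 2 genes. Septin3 shared 0.243% of its 50-base stretches with other genes. The remaining members shared none.

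The stretches before the annotated starts of 4 septin genes are shown because c-FOS acts through the AP-1 site, searched as TGANTCA, which reads the same on both strands. They come from RefSeq with build GRCm38.p6, run 5′ to 3′ on the gene's strand, end at the base before the start and have the site in capitals. The counts were made on another build, mm9, and none of them is placed on these coordinates. Septin7 (chr9:25251741-25251990, plus strand, 1 of 2 annotated starts) and Septin9 (chr11:117331465-117331714, plus strand, 1 of 4 annotated starts) were the members with the site. Septin11 (chr5:93093166-93093415, plus strand) and Septin10 (chr10:59221501-59221750, minus strand) moved in opposite directions in the counts and had none in this window.
Septin7: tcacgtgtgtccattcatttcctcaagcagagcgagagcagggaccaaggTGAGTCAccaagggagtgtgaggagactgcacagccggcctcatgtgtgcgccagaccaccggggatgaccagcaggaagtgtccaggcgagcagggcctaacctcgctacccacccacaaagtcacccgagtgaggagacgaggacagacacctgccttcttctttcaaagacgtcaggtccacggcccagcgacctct
Septin9: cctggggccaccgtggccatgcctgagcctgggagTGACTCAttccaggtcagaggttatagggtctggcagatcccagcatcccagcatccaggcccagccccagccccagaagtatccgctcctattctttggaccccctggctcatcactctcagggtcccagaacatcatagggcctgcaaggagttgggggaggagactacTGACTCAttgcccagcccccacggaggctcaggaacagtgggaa
Septin11: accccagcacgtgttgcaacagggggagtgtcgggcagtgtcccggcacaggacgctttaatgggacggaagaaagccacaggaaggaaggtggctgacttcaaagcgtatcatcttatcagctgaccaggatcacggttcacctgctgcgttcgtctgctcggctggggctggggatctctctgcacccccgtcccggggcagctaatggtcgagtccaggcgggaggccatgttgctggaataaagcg
Septin10: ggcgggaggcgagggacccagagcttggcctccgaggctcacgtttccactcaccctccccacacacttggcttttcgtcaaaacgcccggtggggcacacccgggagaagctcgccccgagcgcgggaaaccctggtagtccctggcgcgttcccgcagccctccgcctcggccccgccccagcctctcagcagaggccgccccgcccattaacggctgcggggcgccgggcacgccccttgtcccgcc

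RefSeq windows of 250 bases before to 50 after a start were matched for 7 of the 10 members, 16 windows in all. The entries Septin3, Septin5 and Septin6 were not matched. The site TGANTCA occurred in 2 of the 16 windows, starting 200 bases before 1 of the 2 Septin7 starts and 215 and 44 bases before 1 of the 4 Septin9 starts. Over all 32851 windows of the same length, 7.81% held it. The related site TGACGTCA occurred in none of the 16 and in 1.79% of all windows. A match is a run of letters and no measure of binding, and no binding data were used here.

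Septin transcripts changed in both directions with c-FOS. Septin5 and Septin11 rose about as steeply as Septin10 fell, Septin7 and Septin2 rose less, and Septin9, the most abundant member, fell slightly. Of the 10 members, 8 had enough counts to be tested, and 4 rose and 2 fell at the 0.05 threshold on Benjamini-Hochberg adjusted p-values, taken over all genes from the quasi-likelihood test of edgeR. The comparison was broad: of 12792 genes tested, 67.1% passed, 33.8% higher and 33.4% lower, so 6 of 8 septins passing is near the background. The median log2 fold change of the 8 septins was 0.15 and their median absolute log2 fold change 0.36, against -0.01 and 0.32 over all genes tested. In 7 of the 8 the groups did not overlap, where 83.6% of all genes tested had groups that did not overlap.

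**Figure D2:**
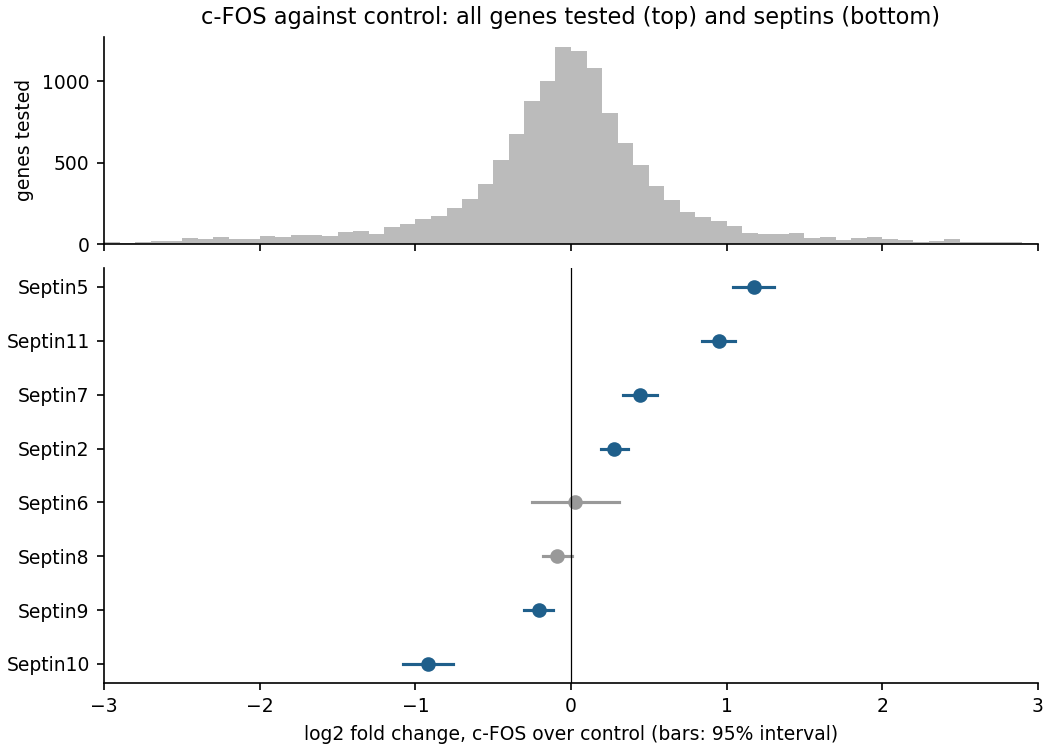
Log2 fold change of c-FOS over control (horizontal axis in both panels). The upper panel counts all genes tested in steps of 0.1, leaving out the 313 genes beyond 3 in either direction, and the lower panel gives the 8 tested members with its 95% interval, in blue where the adjusted p was below 0.05 and in grey otherwise. Septin5 and Septin11 lie to the right near 1, Septin10 to the left near -0.92, and the intervals of Septin6 and Septin8 include 0.

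In the SEPT2 subgroup, Septin2 is the widely expressed member, with roles in cytokinesis and in the diffusion barrier at the base of the cilium. It was at 327 and 349 CPM in control libraries and at 411 and 409 CPM in c-FOS libraries. Both c-FOS libraries lay above both controls. The group means were 338 ± 15.8 and 410 ± 1.42 CPM (SD, n = 2 per group), a log2 fold change of 0.28 ± 0.04 (SE) and a 1.21-fold rise (edgeR adjusted p = 2.57e-05). Among all genes tested, 54.2% had a larger absolute log2 fold change.

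Septin5, known from neurons and platelets, where it binds syntaxin and restrains exocytosis, had the largest change of the tested members. It was at 26.0 and 23.6 CPM in control and at 55.6 and 56.2 CPM in c-FOS libraries. The groups lay far apart against the spread within each. The means were 24.8 ± 1.74 and 55.9 ± 0.385 CPM (SD, n = 2 per group), a log2 fold change of 1.17 ± 0.06 (SE) with a 95% interval of 1.04 to 1.31 (edgeR adjusted p = 6.75e-10). Gp1bb, whose exons overlap it, went from 5.26 and 5.67 to 14.2 and 14.4 CPM, a log2 fold change of 1.38 ± 0.10 (SE). Reads in the shared exons cannot be assigned from this table. With the Gp1bb counts taken off or added, settings chosen after the values were seen, the log2 fold change of Septin5 was 1.11 or 1.21.

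Septin4, which in mice is needed for the ring between the parts of the sperm tail and has an isoform that promotes apoptosis, was close to absent. It had 2 and 0.5 counts in control and 1 and 0.5 counts in c-FOS libraries. The groups overlapped, it was not tested, and no difference was detectable at this depth. Septin1, outside the 10 rows, had 27.5 and 28.5 counts in control and 36 and 24 in c-FOS libraries, with a log2 fold change of 0.13 ± 0.30 (SE), not passed (edgeR adjusted p = 0.714).

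In the SEPT3 subgroup, Septin9, which crosslinks actin and binds microtubules and is needed for the final separation of daughter cells, held nearly the whole level. It was at 727 and 663 CPM in control and at 598 and 606 CPM in c-FOS libraries. The controls differed from each other by about as much as the lower control differed from the c-FOS libraries, without overlap. The means were 695 ± 44.9 and 602 ± 6.05 CPM (SD, n = 2 per group), a log2 fold change of -0.21 ± 0.04 (SE) with a 95% interval of -0.30 to -0.11 (edgeR adjusted p = 0.000734). Septin9 has 4 annotated starts in the RefSeq windows but a single row in the table, so isoforms could not be separated. Which isoforms that row counts is not given.

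Septin3, a mainly neuronal septin, had 5.5 and 7 counts in control and 10 and 5.5 counts in c-FOS libraries. The groups overlapped and it was too low to be tested. Septin12, a testis septin outside the 10 rows, had 0 counts in all 4 libraries, as did Septin14.

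The SEPT6 subgroup held members that moved in opposite directions. Septin11, which builds filaments with Septin7 and Septin9, was at 174 and 196 CPM in control and at 363 and 352 CPM in c-FOS libraries. Both c-FOS libraries were well above both controls. The means were 185 ± 15.3 and 357 ± 7.65 CPM (SD, n = 2 per group), a log2 fold change of 0.95 ± 0.05 (SE), 1.93-fold (edgeR adjusted p = 6.76e-10).

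Septin10 of the same subgroup was at 28.3 and 28.4 CPM in control and at 15.3 and 14.7 CPM in c-FOS libraries. The 2 controls were nearly equal and both c-FOS libraries were far below them. The log2 fold change was -0.92 ± 0.07 (SE), a control level 1.89-fold that of c-FOS (edgeR adjusted p = 7.52e-08). Among all genes tested, 17.4% had a larger absolute log2 fold change than Septin10 and 16.7% than Septin11.

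Septin8, which in neurons binds the vesicle protein VAMP2, was at 133 and 126 CPM in control and at 119 and 124 CPM in c-FOS libraries. The groups did not overlap, but the lower control and the higher c-FOS library were close. The log2 fold change was -0.09 ± 0.04 (SE), which did not pass (edgeR adjusted p = 0.0841), and its 95% interval ran from -0.18 to 0.00. It passed as lower when scaled by library totals rather than TMM (-0.22), with upper-quartile factors (-0.15) and without control replicate 2 (-0.12).

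Septin6, the member after which the subgroup is named, was low. It was at 4.47 and 4.71 CPM in control and at 4.53 and 4.84 CPM in c-FOS libraries, and the groups overlapped. The log2 fold change was 0.03 ± 0.13 (SE), not passed (edgeR adjusted p = 0.862), with a 95% interval of -0.25 to 0.31, or 0.839-fold to 1.24-fold.

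Septin7, the lone member of its subgroup and a subunit of nearly all septin rods, was at 151 and 168 CPM in control and at 225 and 210 CPM in c-FOS libraries. Both c-FOS libraries were above both controls. The means were 160 ± 12.2 and 218 ± 10.8 CPM (SD, n = 2 per group), a log2 fold change of 0.44 ± 0.05 (SE), 1.36-fold (edgeR adjusted p = 3.46e-06).

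**Figure D3:**
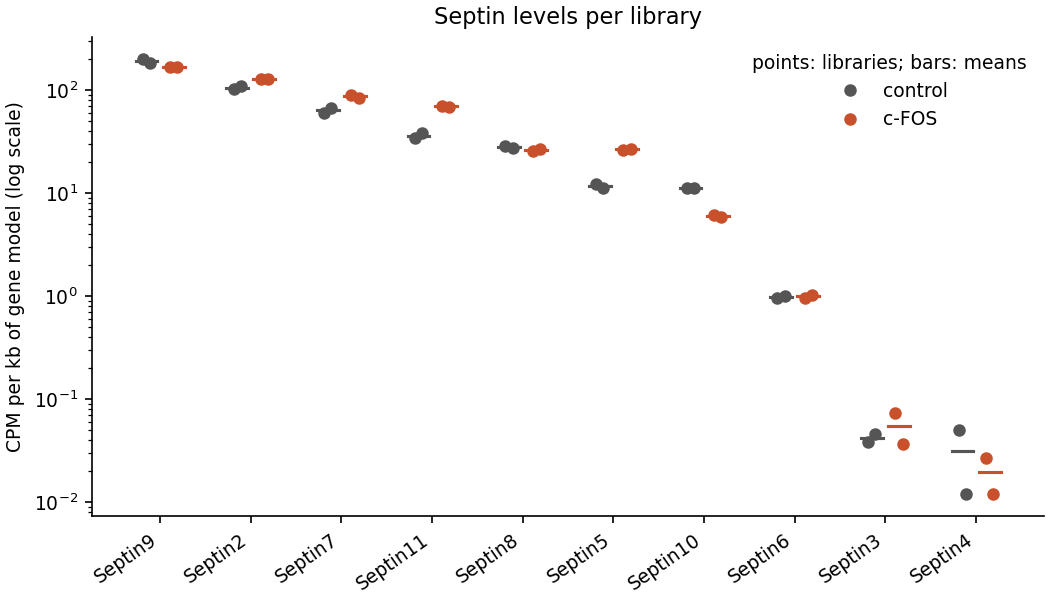
Level of each septin in each library, in CPM per kb of gene model on a log scale, with 1 point per library (grey control, orange c-FOS) and a short bar for each group mean. Septin9, Septin2, Septin7 and Septin11 stand highest in both groups, and Septin3 and Septin4 lie below 0.1 CPM per kb in all libraries.

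To compare members with each other, CPM were divided by gene model length in kilobases (CPM per kb). In control libraries Septin9 stood highest at 193 ± 12.5 CPM per kb, followed by Septin2 at 105 ± 4.94, Septin7 at 63.6 ± 4.87, Septin11 at 35.9 ± 2.97 and Septin8 at 28.0 ± 1.07 CPM per kb (SD, n = 2). These levels per kb were in the upper part of all genes tested, at the percentiles 98.4 for Septin9, 96.7 for Septin2, 93.4 for Septin7, 89.0 for Septin11 and 75.8 for Septin8, over the 4 libraries. Septin5 at 11.7 ± 0.823 and Septin10 at 11.2 ± 0.0305 CPM per kb did not differ beyond their spread in control libraries, and Septin6 followed at 0.976 ± 0.0358 CPM per kb.

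With c-FOS the first 4 places of the order were the same, with Septin9 at 167 ± 1.68, Septin2 at 128 ± 0.443, Septin7 at 86.6 ± 4.30 and Septin11 at 69.4 ± 1.48 CPM per kb (SD, n = 2). Septin5 at 26.5 ± 0.182 CPM per kb now stood level with Septin8 at 26.3 ± 0.688, and the 2 did not differ beyond their spread. Septin10, level with Septin5 in control, was at 5.93 ± 0.193 CPM per kb. The levels of Septin9 and Septin11 came closer together: the ratio of Septin9 to Septin11 in level per kb was 5.97 and 4.84 in control libraries and 2.36 and 2.46 in c-FOS libraries.

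Ratios between septins within a library do not depend on the scaling between libraries. With 2 libraries against 2, an exact permutation test cannot give a two-sided p below 0.333, and the ratios are given as values without a test. In level per kb, the ratio of Septin11 to Septin10 was 3.02 and 3.39 in control and 11.6 and 11.8 in c-FOS libraries. The ratio of Septin11 to Septin8 was 1.18 and 1.40 in control and 2.72 and 2.55 in c-FOS libraries. Septin11 thus supplied 45.3% and 49.1% of the summed level of the SEPT6 subgroup in control and 68.2% and 67.0% in c-FOS libraries, while the share of Septin8 went from 38.5% and 35.1% to 25.02% and 26.3%. Septin10 supplied 14.98% and 14.5% of that subgroup in control and 5.88% and 5.69% in c-FOS libraries. In the SEPT2 subgroup, Septin5 supplied 10.8% and 9.28% in control and 17.0% and 17.2% in c-FOS libraries, with Septin2 making up nearly all of the rest.

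Summed by subgroup in level per kb, the transcripts of 3 subgroups stood higher with c-FOS by similar factors and those of the other stood lower. The SEPT2 subgroup summed to 114 and 120 CPM per kb in control and to 155 and 154 in c-FOS libraries, a ratio of means of 1.32. The SEPT6 subgroup summed to 74.7 and 77.5 in control and to 103 and 102 CPM per kb in c-FOS libraries, a ratio of 1.35. Septin7, alone in its subgroup, had a ratio of means of 1.36. How close these 3 ratios lie depended on the division by length. In shares of counts, the SEPT2 subgroup gained 2.94 and the SEPT6 subgroup 5.76 percentage points, against 4.19 and 3.18 per length. The SEPT2 sum also includes Septin5, whose exons overlap Gp1bb, while Septin2 alone rose 1.21-fold. The SEPT3 subgroup, nearly all Septin9, summed to 202 and 184 in control and to 166 and 168 CPM per kb in c-FOS libraries, a ratio of 0.866. In none of the 4 subgroups did the 2 groups of libraries overlap, where 83.6% of all genes tested had groups that did not overlap.

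Within a library, the sum of the SEPT2 subgroup was 1.90 and 1.79 times that of Septin7 in control and 1.73 and 1.85 times in c-FOS libraries. The sum of the SEPT6 subgroup was 1.24 and 1.16 times that of Septin7 in control and 1.15 and 1.22 times in c-FOS libraries. Control and c-FOS libraries overlapped in both of these ratios. The sum of the SEPT3 subgroup was 3.36 and 2.75 times that of Septin7 in control and 1.85 and 2.02 times in c-FOS libraries, without overlap. As a share of all septin level, the SEPT3 subgroup went from 44.8% and 41.0% to 32.3% and 33.1%. Transcript levels do not show how much protein or how many rods the cells held.

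**Figure D4:**
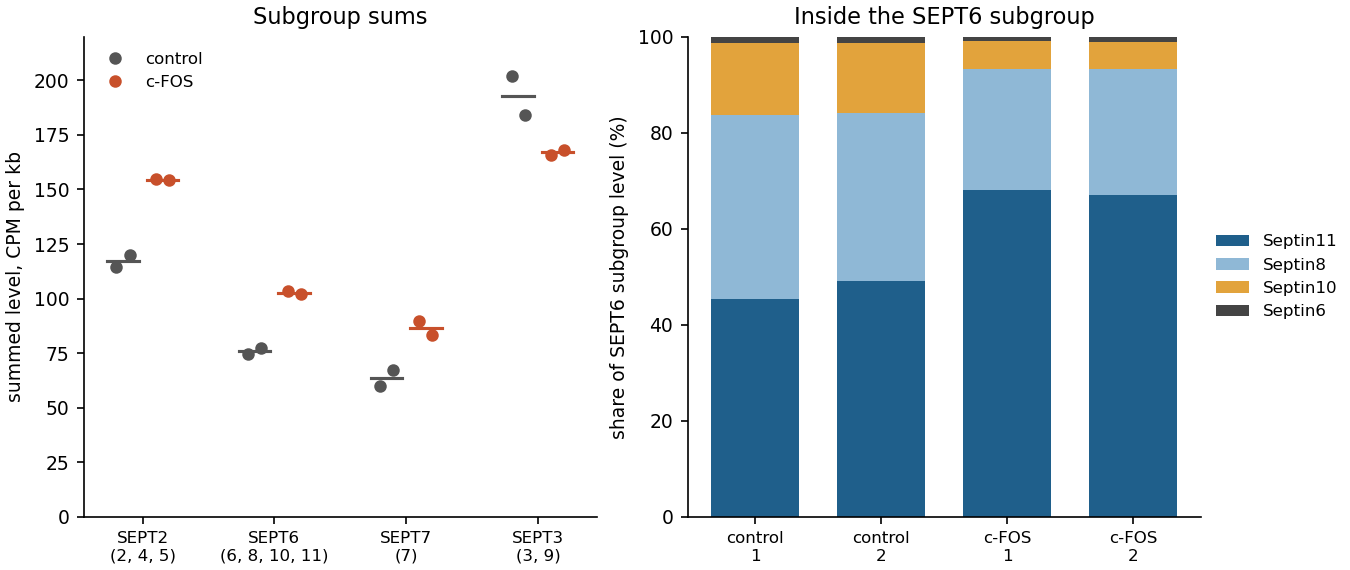
Left, summed level of each septin subgroup in CPM per kb, with 1 point per library (grey control, orange c-FOS) and a bar for each group mean: the SEPT2, SEPT6 and SEPT7 sums are higher in both c-FOS libraries and the SEPT3 sum is lower. Right, the share of each member in the SEPT6 subgroup in percent for each library, where Septin11 takes 45.3% and 49.1% in control and 68.2% and 67.0% in c-FOS libraries.

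The septin family as a whole summed to 450 ± 1.53 CPM per kb in control and 511 ± 3.86 CPM per kb in c-FOS libraries (SD, n = 2 per group), a ratio of 1.14. This small difference depended on the scaling and on Septin9. The log2 difference of the sums was 0.18 with TMM factors, 0.05 with library totals and 0.42 without Septin9. As plain counts, the 10 rows took 0.165% and 0.164% of all counts in control and 0.171% and 0.170% in c-FOS libraries.

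Genes that work with septins were described from lists of their known partners. Cdc42 and its Borg effectors, which bind septins and arrange their filaments, were higher: 4 of the 5 tested rose, none fell and 1 did not pass (median log2 fold change 0.37, against -0.01 over all genes tested, of which 33.8% were called higher). Cdc42ep3 had control and c-FOS means of 32.3 ± 2.49 and 60.2 ± 0.324 CPM (SD, n = 2), and its log2 fold change was 0.90 ± 0.06 (SE). Cdc42ep2 rose by 0.88 from a low level of 1.61 ± 0.416 CPM, Cdc42 by 0.37 and Cdc42ep1 by 0.24 on the log2 scale. Cdc42ep4 had a log2 fold change of 0.02, and Cdc42ep5 was at 0 counts.

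Among 19 tested septin-binding partners, 7 were higher, 8 lower and 4 not called (median log2 fold change -0.07), so 15 were called, where 67.1% of all genes tested were. Anln, which encodes anillin, the scaffold that brings septins to the cleavage furrow, had control and c-FOS means of 197 ± 11.6 and 52.4 ± 2.33 CPM (SD, n = 2), and its log2 fold change was -1.91 ± 0.05 (SE). Cenpe, a kinetochore motor that binds Septin7, fell by 2.12 on the log2 scale. Sh3kbp1, the endocytic adaptor CIN85, rose by 1.26, and Park2, a ubiquitin ligase known to act on Septin5, rose by 1.59 from a low level of 0.671 ± 0.0450 CPM. Outside the naming rule, and chosen after their values were seen, other partners moved in both directions. Myh9, the heavy chain of non-muscle myosin IIA, rose by 1.02 and Map4, a microtubule-associated protein, by 0.71 on the log2 scale. Hif1a fell by 1.22. Myh10, another non-muscle myosin heavy chain gene, had a log2 fold change of -0.55, Dock8 of -0.98 and Vamp2 of -0.68.

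Of 21 tested cytokinesis genes, 15 were lower, 5 higher and 1 not called (median log2 fold change -1.79), against 33.4% of all genes tested called lower. Aurkb, a kinase of the chromosomal passenger complex, had a log2 fold change of -2.50, its partner Birc5 of -2.28, the spindle midzone motor Kif20a of -2.41 and the mitotic kinase Plk1 of -2.34. Anln stands on this list too. The 5 that rose, named after their values were seen, were Rock2 (0.54), Rock1 (0.25) and Rhoa (0.24), which encode the small GTPase and kinases that drive actomyosin contraction, the myosin light chain gene Myl12a (0.22) and the formin gene Diaph1 (0.15), all on the log2 scale. Also named after their values were seen, Cit (-1.98), the formin gene Diaph3 (-1.80) and Dstn (-0.26) were lower. The myosin light chain gene Myl12b (-0.06) was not called, and Myl9 was too low to be tested. With library totals, 2 genes of this list passed as higher. No tested septin fell as far as the median of this list: the lowest, Septin10, had a log2 fold change of -0.92. Whether the septin changes were linked to those of the cytokinesis genes was not tested. In bulk libraries, fewer dividing cells and less RNA per cell cannot be told apart.

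**Figure D5:**
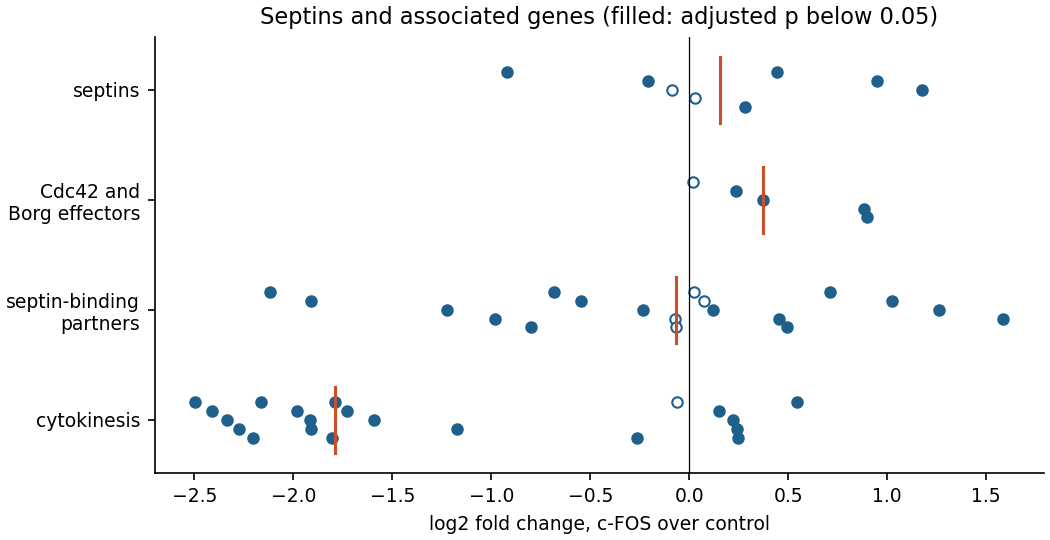
Log2 fold change of c-FOS over control for the tested septins and for the tested genes of 3 lists of associated genes (1 point per gene, filled where the adjusted p was below 0.05, with a red bar at the median). The medians are 0.15 for septins, 0.37 for Cdc42 and its Borg effectors, -0.07 for binding partners and -1.79 for cytokinesis genes.

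Levels of markers of cells rich in particular septins stood beside these values. For the counts that follow, 33.8% of all genes tested were called higher. Of 8 neuron markers 3 were tested. Tubb3 rose from 29.5 ± 0.948 CPM to 215 ± 6.73 CPM (SD, n = 2), and Map2 rose too. Syn1 had 1.5 and 1 counts in control and 14.5 and 17.5 counts in c-FOS libraries. It had enough counts to be tested only because of the c-FOS libraries, so its call as higher is not counted as a result. The list summed to 131 and 141 CPM in control and to 345 CPM in both c-FOS libraries, with Syp, not tested, lower (0.336 and 0.271 CPM against 0.144 and 0.129 CPM), Snap25 at 0 and Rbfox3 and Elavl3 below 0.1 CPM in each group mean. Of 9 leukocyte markers 2 were tested, Csf1r and Cd68, and Cd68 rose. Csf1r had 11.5 and 7 counts in control and 511.5 and 571.5 counts in c-FOS libraries. Without the c-FOS libraries Csf1r would not have been tested, so its call as higher is not counted either. The leukocyte list summed to 12.3 and 10.6 CPM in control and 32.1 and 33.7 CPM in c-FOS libraries, with 4 markers at 0 in all libraries. Of 7 fibroblast markers 3 were tested and 2 rose, with a list sum of 5.40 and 5.65 CPM in control and 14.9 and 16.5 CPM in c-FOS libraries. Among the untested, Dcn was at 0.286 and 0.591 CPM in control and at 0.144 and 0.113 CPM in c-FOS libraries, and Thy1 was at 0. Of 4 endothelial markers 2 were tested and both rose, Pecam1 from 81.2 to 101 CPM and Tek from 0.759 to 1.95 CPM, with a list sum of 83.7 and 80.3 CPM in control and 103 and 102 CPM in c-FOS libraries and Kdr at 0. Of 5 melanocyte markers 2 were tested and neither passed. Their part in the rise of Septin5 and Septin11 was not tested.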

How the data were processed

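RNA was measured in 4 libraries, 2 control and 2 c-FOS, grouped by the titles. Per the labels' protocols, libraries were made from total RNA with a TruSeq kit. By the series' design text, reads were aligned with TopHat and counted with HOMER, and per the submitters' processing notes the build was mm9 and DESeq2 was used. Tool versions, annotation and strand setting: not given in the sources used here. Per gene, the authors deposited expected counts, not normalized, in steps of 0.5, beside a gene model length and strand. How steps of 0.5 arose is not given.

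Counts were rounded to whole numbers and tested with edgeR 4.0.16 (R 4.3.3): TMM factors (1.05, 1.05, 0.953 and 0.954), filterByExpr (minimum count 10, total 15), quasi-likelihood test, two-sided, Benjamini-Hochberg over 12792 genes, threshold 0.05. The 2 date symbols that stand on 2 rows each were kept as separate rows. SE is from the F statistic. CPM use deposited counts over TMM-scaled totals. The test was tried on simulated counts with few changed genes and the same variability for all genes. That setting differs from these data, where most genes were called, so it does not give the error rate here. Replicates differed by more than sampling noise (chi-square per degree of freedom 5.01 in control and 1.98 in c-FOS). Alternatives were other scalings, filters, rounding, DESeq2 1.42.0, a replicate block and leaving out each library.

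All 10 members are given. From each list of associated genes, the text names the 4 called genes with the largest absolute change. It also names the rest of the Cdc42 list, genes needed as checks and genes whose sign turned with the scaling. The text says where another gene of these lists is named. Cell type markers come from fixed lists, and those named were picked by no set rule. Members and lists were chosen with earlier results of these data known. Transcript lengths and exons are from GENCODE M21 (GRCm38).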

Additional observations from a re-analysis of the deposited data

How the results depend on the processing

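Over 12 alternatives for each tested septin, the 6 called septins kept their direction and their side of the threshold, with log2 fold changes of 0.14 to 0.33 for Septin2, -0.34 to -0.14 for Septin9, -1.06 to -0.88 for Septin10, 0.81 to 1.04 for Septin11 and 0.31 to 0.53 for Septin7. For Septin5 the range was 1.04 to 1.248, over 14 settings that include the Gp1bb counts added (1.21) or taken off (1.11), chosen after seeing the data. Septin6 stayed uncalled (-0.11 to 0.08). Septin8 passed as lower with library totals (-0.22), upper-quartile factors (-0.15) and, in the range -0.12 to -0.046 over left-out libraries, without control replicate 2.

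With library totals the median log2 fold change of all genes was -0.14, higher genes made up 35.4% of those called (50.3% with TMM, 43.0% with upper-quartile factors), cytokinesis genes called higher numbered 2 in place of 5, the log2 difference of summed septin level was 0.046, and the signs of Rtkn (-0.11) and Arhgef18 (-0.019) turned. Without Septin9 that difference was 0.42. In shares of counts, the change of the SEPT2 subgroup was 2.94 and that of SEPT6 5.76 percentage points, against 4.19 and 3.18 per length. DESeq2 called 7177 genes against 8589. With the replicate number as a block, 8464 genes and the same 6 septins were called; same-numbered libraries had a correlation of deviations of -0.0781, so the numbers were not taken as pairs. With a left-out library or the block, few residual degrees of freedom remain, and a lone library is assumed to vary like the others.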

Other observations

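The 13 other date rows of the table belong to March symbols, and 8 of them were tested, with 4 higher, 2 lower and 2 not called by edgeR (Benjamini-Hochberg adjusted over all genes), where 67.1% of all genes tested were called. Here the date alone does not give the gene, since 2 gene families, the March ubiquitin ligases and the Marc mitochondrial amidoxime-reducing enzymes, can yield the same dates. The symbol 2-Mar stands on 2 rows whose transcripts changed in opposite directions. The row of 1408 bases was 10 bases from a March2 transcript and 509 from the nearest Marc2 transcript, and it rose by a log2 fold change of 1.08, from 19.5 to 41.3 CPM. The row of 1873 bases was 44 bases from a Marc2 transcript and 455 from March2, with a log2 fold change of -0.37 and group means of 38.2 and 29.6 CPM. Both genes lie on the minus strand, so only length separates them. The symbol 1-Mar also stands on 2 rows, of 3936 bases on the plus and 2133 bases on the minus strand, which lie 17 bases from March1 and 19 bases from Marc1 in turn; both had too few counts to be tested. Keeping the row with the higher total for each symbol would have left out the 2-Mar row that rose.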
